A study of Homo sapiens with 9 samples.

Results

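The genes described here are 39 human genes of homologous recombination and of the Fanconi anaemia pathway, chosen by gene name from a table of 58735 genes counted in OVCAR4 cells, a cell line of ovarian serous adenocarcinoma. All 39 were found in the table, and all 39 passed the filter on low counts that left 16928 genes for testing. The cells carried the scramble short hairpin RNA (scr control), or 1 of 2 independent hairpins against MPZL3, a predicted cell adhesion molecule, here called shMPZL3 #1 and shMPZL3 #2, each delivered by virus and followed by 3 days of puromycin. Every group had 3 libraries, given by the study as biological replicates, so that 6 knockdown libraries stood against 3 scr control libraries. All 3 groups thus shared transduction and drug selection, and no untransduced cells were among them.

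Homologous recombination repairs a double-strand break by copying the sister chromatid. The MRE11, RAD50 and NBN complex senses the break and, with RBBP8, EXO1, DNA2 and the BLM helicase, trims its ends to single strands. BRCA1, BARD1, PALB2 and BRCA2 then act on the resected ends, and RAD51B, RAD51C, RAD51D, XRCC2, XRCC3 and the RAD54 proteins assist in the search for the matching strand. The Fanconi core complex, with the E2 enzyme UBE2T, ubiquitinates FANCD2 and FANCI at crosslinked DNA so that nucleases on the SLX4 scaffold can unhook the crosslink. ATM and ATR signal the damage to the kinases CHEK2 and CHEK1. POLQ, the polymerase of theta-mediated end joining, offers another way to join resected ends. Defects of this pathway are common in high-grade serous ovarian cancer, which is why its transcripts are of interest in such a line.

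The libraries held 15040102 to 27835841 counted reads. MPZL3 stood at 536, 611 and 587 normalized counts (counts scaled to the mean library size) with scr control, at 119, 143 and 123 with shMPZL3 #1 and at 284, 380.4 and 271 with shMPZL3 #2, so the knockdown was deeper with the first hairpin and no library went against its label. The epithelial and Müllerian markers PAX8, MUC16, EPCAM, KRT7, KRT8 and KRT18 were all at 3381 counts or more in every library, while WT1, which many serous carcinomas express, had 3 to 13 counts. Of the markers of other cell types, DCN was at 0 in every library and CD3E, CD68, PECAM1, PDGFRB and PTPRC did not exceed 26 counts, but VWF had 67 to 151 and LUM 62 to 318. LUM moved with the groups, with mean normalized counts of 89.4 with scr control, 153 with shMPZL3 #1 and 243 with shMPZL3 #2, and so did MUC16, with 7703, 5054 and 6516. Summed over the 8 markers of other cell types the normalized counts were 196 to 227 with scr control, 204 to 302 with shMPZL3 #1 and 336 to 434 with shMPZL3 #2, and the part of these markers in the results was not tested. The mitochondrial share of counts was 7.16% to 7.76% with scr control, 7.75% to 8.65% with shMPZL3 #1 and 7.39% to 7.80% with shMPZL3 #2, and its part in the results was not tested.

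The repair genes as a group were lower after MPZL3 knockdown, with the lowest libraries among those of shMPZL3 #1. Together they had a summed CPM (counts scaled to library size) of 1573 to 1634 with scr control, 1070 to 1301 with shMPZL3 #1 and 1304 to 1493 with shMPZL3 #2, so neither knockdown group overlapped the controls. With both hairpins grouped, 9 of the 39 genes were called lower (edgeR quasi-likelihood test, adjusted p under 0.05 over all genes tested) against 6.40% of all genes. They were MRE11, DNA2, BLM, CHEK1, RAD51D, XRCC2, RAD51AP1, FANCB and POLQ. None was called higher, against 9.36% of all genes, and none was higher at an unadjusted p under 0.05, whether by edgeR, DESeq2 or limma-voom. At the unadjusted threshold 19 were lower. The share of all genes at that threshold was not counted, here or for the unadjusted counts below. The median log2 fold change of the 39 genes was -0.34, with a range of -0.71 to 0.24 and 31 genes below 0, where the median of all genes tested was 0.02.

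The grouped calls depended on the libraries and on the fit. The count called lower was 18 with the mean of the 2 hairpins taken in the 3-group fit and 13 without shMPZL3 #2 replicate 2. Without scr control replicate 1 the number called lower was 0 (15 at an unadjusted p under 0.05), without replicate 2 it was 2 and without replicate 3 it was 4. Calls over all genes moved as well. In the main fit 1083 of 16928 genes were called lower, and 2198 with the mean of the 2 hairpins. Without shMPZL3 #2 replicate 2 it was 1450 of 17582. Without scr control replicate 1, 2 or 3 it was 172 of 17589, 276 of 17514 or 423 of 17621. In the fit without scr control replicate 1 the 9 genes kept their sign, CHEK1 standing at -0.70 with an adjusted p of 0.0524 by edgeR. In 17 of the 39 genes all 6 knockdown libraries lay below all 3 scr control libraries, against 11.0% of all genes, and in 0 did all 6 lie above, against 11.8%. Besides the 9 called genes these were ATR, CHEK2, BRCA2, RAD51C, FANCA, FANCE, FANCD2 and FANCI.

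**Figure D1:**
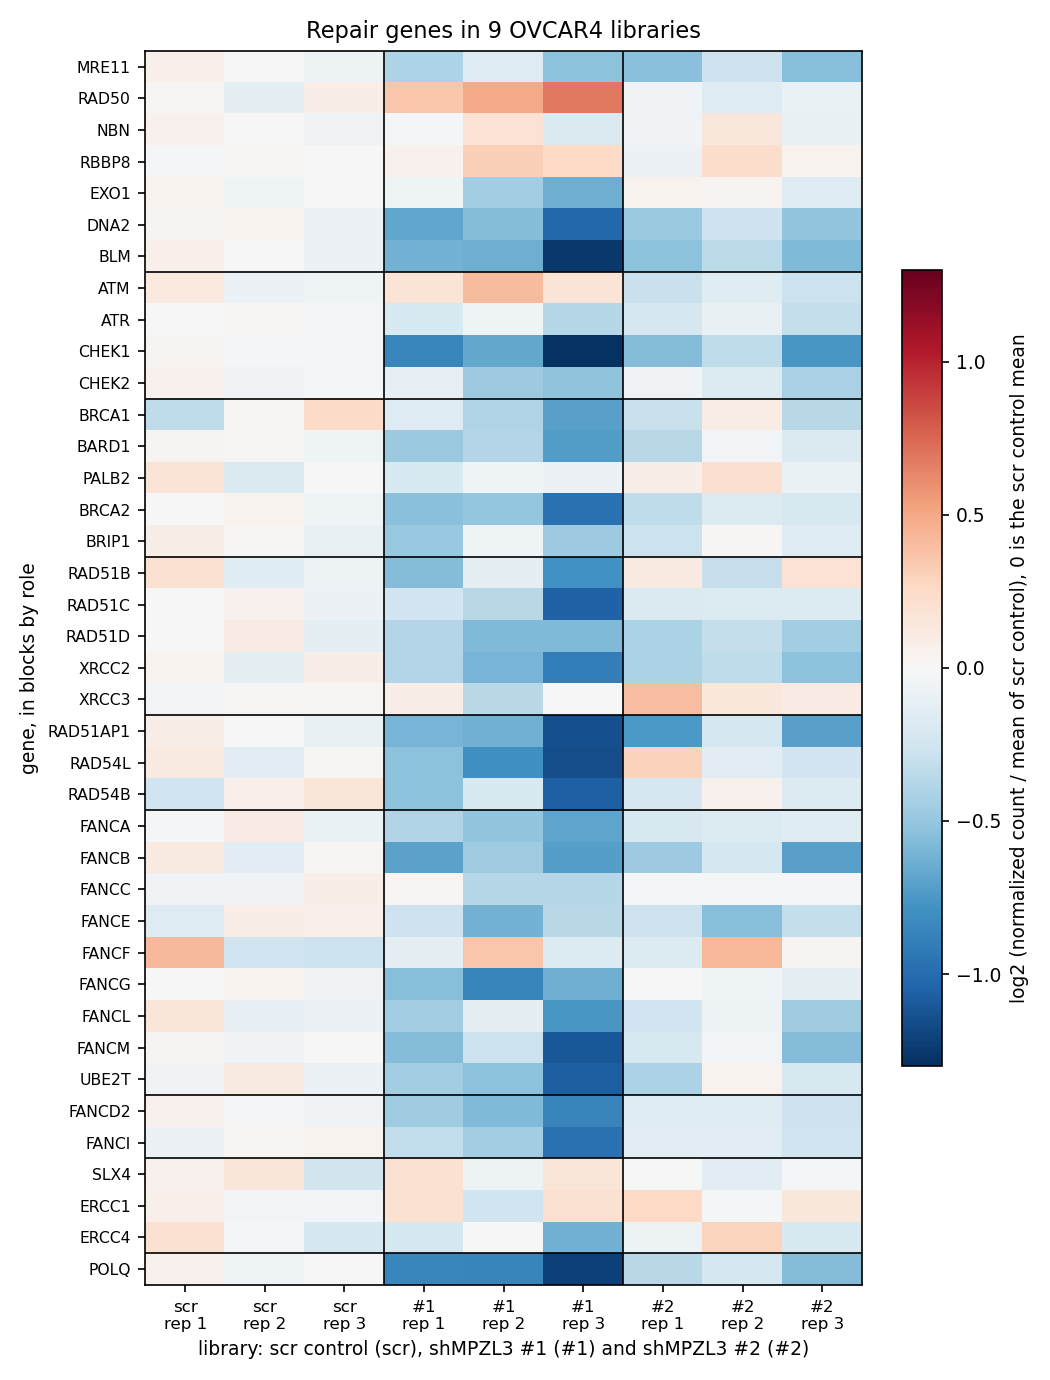
Each cell gives the log2 ratio of a gene's normalized count in 1 of the 9 libraries (columns, 3 per group) to the mean of the 3 scr control libraries, for the 39 repair genes in blocks by role. Blue cells fill most rows under shMPZL3 #1, deepest in replicate 3, and are paler under shMPZL3 #2, while RAD50 is red under shMPZL3 #1 alone.

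Each hairpin was then set against the same 3 scr control libraries, so the 2 comparisons are not independent. With shMPZL3 #1, 21 genes were called lower against 15.3% of all genes and 1 was called higher against 16.8%. With shMPZL3 #2, 7 were called lower against 5.80% and 0 higher against 9.36%, and no gene was higher with this hairpin at an unadjusted p under 0.05 in edgeR or DESeq2. The median log2 fold change was -0.46 with shMPZL3 #1 and -0.18 with shMPZL3 #2, against 0.01 and 0.00 for all genes. The 7 genes lower with each hairpin singly were MRE11, DNA2, BLM, CHEK1, XRCC2, RAD51AP1 and POLQ. The share of all genes lower with each hairpin singly was not counted, and the shared controls alone can raise such an overlap. For shMPZL3 #2 the count of 7 fell to 0 without its replicate 3 (7 at an unadjusted p under 0.05), to 2 without its replicate 1, to 2 without scr control replicate 1 and to 3 without scr control replicate 2 or 3. The calls over all genes, 982 of 16928 lower in the main fit, fell as well. They were 354 of 17515 without shMPZL3 #2 replicate 3 and 609 of 17581 without its replicate 1. Without scr control replicate 1, 2 or 3 they were 488 of 17589, 501 of 17514 or 641 of 17621.

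**Figure D2:**
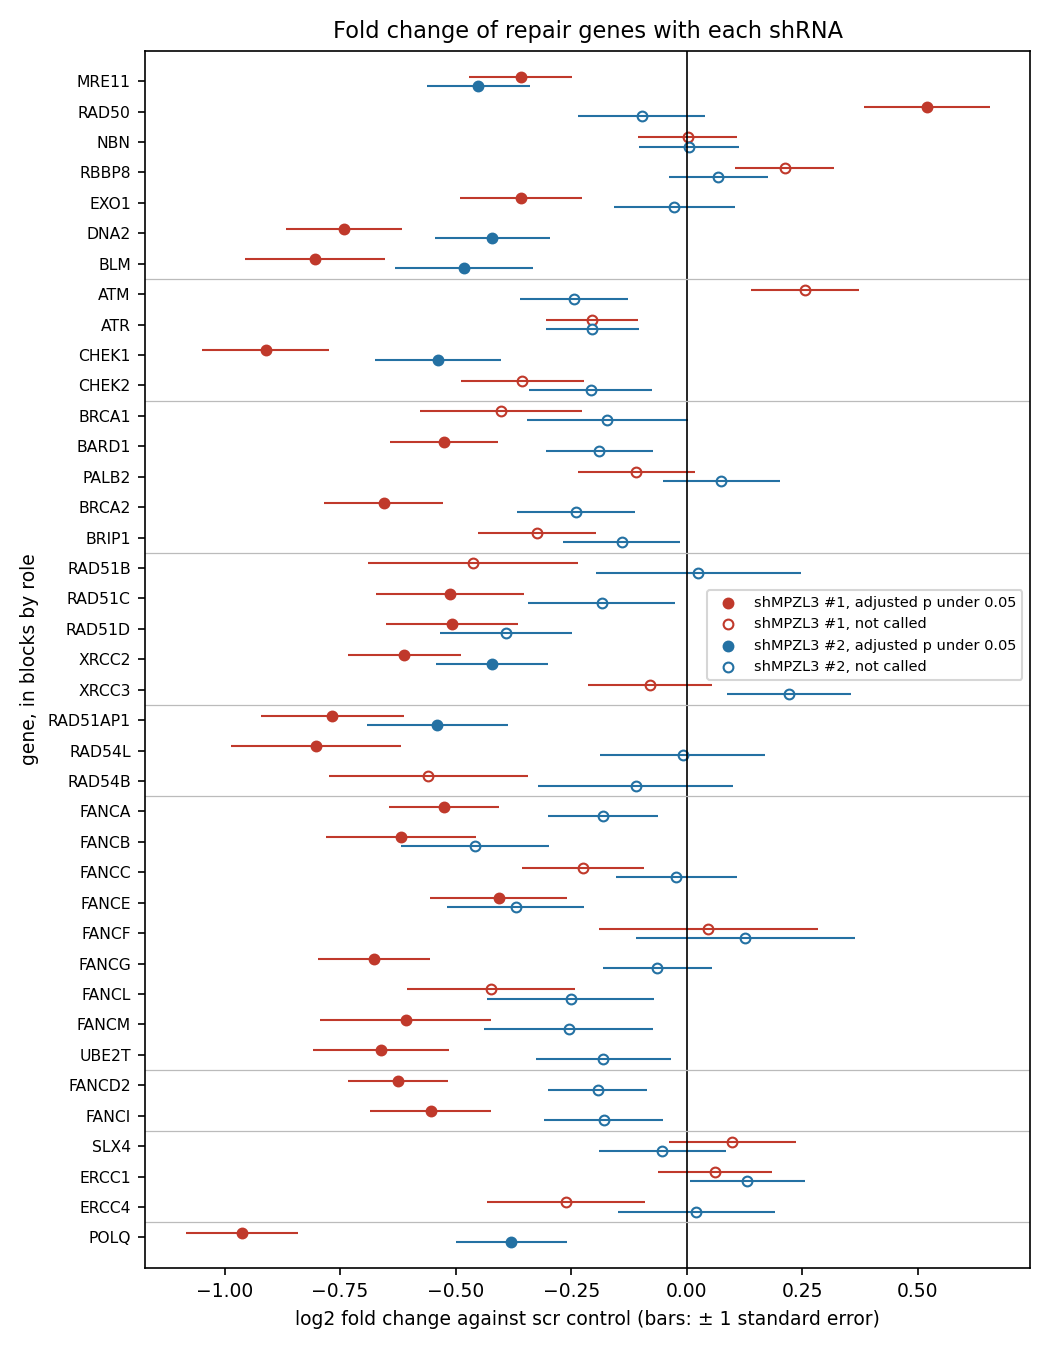
The log2 fold change against scr control (horizontal axis, bars ± 1 standard error) is drawn for each of the 39 genes with shMPZL3 #1 in red and shMPZL3 #2 in blue, filled where the adjusted p was under 0.05. The red points lie to the left of the blue ones in most rows, and RAD50 with shMPZL3 #1 at 0.52 is the filled point to the right of 0.

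The test of shMPZL3 #2 against shMPZL3 #1 used no control library in its contrast. It called 6 genes higher with shMPZL3 #2, against 7.56% of all genes, namely BRCA2, RAD54L, FANCG, UBE2T, FANCD2 and POLQ. It called 2 lower, also against 7.56%, namely RAD50 and ATM. The median difference of the 39 genes was 0.23 on the log2 scale, against 0.01 for all genes. Without shMPZL3 #1 replicate 3, or without shMPZL3 #2 replicate 1, the count called higher was 3, and without shMPZL3 #1 replicate 1 it was 9. Over all genes the count called higher was 1279 in the main fit, and 786, 741 and 1521 in these fits in that order.

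Promoter stretches of called genes are shown because these genes were lower with both hairpins, and RAD50, which was not, is set beside them. Each is the longest run that no annotated exon covers within the 250 bases before the RefSeq start (GRCh38.p14, gene strand, 5′ to 3′). Counted from the start, the runs span -194 to -1 for CHEK1, -204 to -20 for BLM and -250 to -93 for RAD51AP1. They span -250 to -25 for XRCC2 and -138 to -40 for RAD50, so the bases nearest the start are mostly not shown. Capitals mark CCAAT boxes read on either strand, here as ATTGG. CHEK1 is at chr11:125626035-125626228 on the plus strand, BLM at chr15:90717142-90717326 on the plus strand, RAD51AP1 at chr12:4538640-4538797 on the plus strand, XRCC2 at chr7:152676166-152676391 on the minus strand and RAD50 at chr5:132556839-132556937 on the plus strand.
CHEK1: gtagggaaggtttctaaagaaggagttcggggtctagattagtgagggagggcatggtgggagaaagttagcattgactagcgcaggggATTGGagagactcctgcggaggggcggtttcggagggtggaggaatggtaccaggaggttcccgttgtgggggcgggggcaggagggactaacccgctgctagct
BLM: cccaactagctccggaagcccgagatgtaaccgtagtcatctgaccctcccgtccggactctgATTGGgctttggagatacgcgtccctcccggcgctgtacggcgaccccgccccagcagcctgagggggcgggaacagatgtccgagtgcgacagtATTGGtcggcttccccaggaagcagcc
RAD51AP1: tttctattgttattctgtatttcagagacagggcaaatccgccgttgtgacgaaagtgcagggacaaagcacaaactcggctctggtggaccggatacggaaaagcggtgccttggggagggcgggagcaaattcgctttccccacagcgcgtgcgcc
XRCC2: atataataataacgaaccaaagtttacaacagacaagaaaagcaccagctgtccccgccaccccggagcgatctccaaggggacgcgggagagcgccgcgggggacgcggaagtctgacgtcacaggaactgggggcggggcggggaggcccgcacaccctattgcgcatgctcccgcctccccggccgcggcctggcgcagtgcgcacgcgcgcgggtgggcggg
RAD50: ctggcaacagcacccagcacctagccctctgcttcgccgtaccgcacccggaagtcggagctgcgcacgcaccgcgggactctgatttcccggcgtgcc

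Of the 39 genes, 35 had a promoter entry, and DNA2, FANCI, NBN and RAD54B had none. In the 250 bases before the start, both strands read, the CCAAT box (CCAAT) was present in 14 of the 35 and in 33.0% of 27305 promoters. The cell cycle homology element (CHR, TTTGAA or TTCGAA) was in 5 of the 35, ATM, BRIP1, FANCC, POLQ and UBE2T, and in 14.6% of all. The E2F letters (TTTCCCGC, TTTGGCGC, TTTCGCGC or TTTGCCGC) were in 2 of the 35, FANCA and FANCC, and in 2.79% of all. Within the stretches shown, CHEK1 held 1 CCAAT box and BLM 2, and the others held no searched motif. Such a match is a description of letters, not of a bound site.

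Genes of break sensing and end resection differed among themselves. Of these 7 genes 3 were called lower with both hairpins grouped, MRE11, DNA2 and BLM, and the median was -0.18. MRE11, the nuclease of the sensing complex, had 2029, 1939 and 1851 normalized counts with scr control, 1469, 1724 and 1343 with shMPZL3 #1 and 1330.2, 1609.8 and 1319.8 with shMPZL3 #2. All 6 knockdown libraries were lower than the controls, and the hairpins overlapped each other. Its log2 fold change was -0.36 ± 0.11 (SE) with shMPZL3 #1 (adjusted p = 0.0213) and -0.45 ± 0.11 (SE) with shMPZL3 #2 (adjusted p = 0.0117). DNA2, a nuclease and helicase of long-range resection, stood at 912, 919 and 847 with scr control, at 558, 604 and 441 with shMPZL3 #1 and at 637, 741 and 625.3 with shMPZL3 #2. No knockdown library reached the lowest control. The change was -0.74 ± 0.13 (SE) with the first hairpin (adjusted p = 0.000331) and -0.42 ± 0.12 (SE) with the second (adjusted p = 0.0307).

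BLM, the helicase mutated in Bloom syndrome, had 701, 672 and 632 normalized counts with scr control, 437, 431 and 279.9 with shMPZL3 #1 and 462, 525.5 and 449 with shMPZL3 #2. The groups did not overlap with the controls, and replicate 3 of shMPZL3 #1 was the lowest library. Its log2 fold change was -0.80 ± 0.15 (SE) with shMPZL3 #1 (adjusted p = 0.000746) and -0.48 ± 0.15 (SE) with shMPZL3 #2 (adjusted p = 0.0391). EXO1, the other long-range exonuclease, was called lower with shMPZL3 #1 alone, at -0.36 ± 0.13 (SE) (adjusted p = 0.0472), although its libraries overlapped those of the controls. NBN, which tethers ATM to the complex, was at 0.00 in every contrast, with a grouped 95% interval of -0.21 to 0.22. RBBP8, which starts resection, was at 0.14 ± 0.10 (SE) grouped and passed no test.

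RAD50, the ATPase of the sensing complex, went the other way from its partner MRE11 with the first hairpin. It had 289, 264 and 303.8 normalized counts with scr control, 367, 400.4 and 459 with shMPZL3 #1 and 276, 255 and 268 with shMPZL3 #2. The shMPZL3 #1 libraries were all above the controls, while the shMPZL3 #2 libraries overlapped them. The log2 fold change was 0.52 ± 0.14 (SE) with shMPZL3 #1 (adjusted p = 0.00768) and -0.097 ± 0.14 (SE) with shMPZL3 #2 (adjusted p = 0.684), and the difference between the hairpins was -0.62 ± 0.13 (SE) (adjusted p = 0.00532). It was the only one of the 39 genes called higher against scr control. In the annotation 79.7% of the exonic bases of RAD50 are shared with another gene, mainly AC116366.3 on the same strand, and the sources used here do not say how reads on shared bases were assigned, so its level is uncertain.

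Among the 4 checkpoint kinases, CHEK1 fell and ATM differed between the hairpins. CHEK1, the effector kinase below ATR, had 2549, 2466 and 2443 normalized counts with scr control, 1385, 1563 and 1019 with shMPZL3 #1 and 1688, 1977 and 1472 with shMPZL3 #2. Every knockdown library was under the lowest control. Its grouped log2 fold change of -0.71 ± 0.15 (SE) (adjusted p = 0.00891) was the largest fall of the 39 genes, with -0.91 ± 0.14 (SE) for shMPZL3 #1 (adjusted p = 0.000131) and -0.54 ± 0.14 (SE) for shMPZL3 #2 (adjusted p = 0.0131). ATR, the kinase that answers single-stranded DNA, had 2556, 2602 and 2534 with scr control, 2235, 2458 and 1980.4 with shMPZL3 #1 and 2211, 2396 and 2074 with shMPZL3 #2. All 6 knockdown libraries were below the controls, by a small margin, and the grouped change of -0.20 ± 0.093 (SE) did not pass the test (adjusted p = 0.149, 95% interval -0.40 to -0.0049).

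ATM, the kinase that answers double-strand breaks, had 648, 566 and 571 normalized counts with scr control, 673, 791 and 666 with shMPZL3 #1 and 485, 533 and 489 with shMPZL3 #2. The shMPZL3 #1 libraries were all above and the shMPZL3 #2 libraries all below the controls. Neither change passed the test on its own, at 0.26 ± 0.12 (SE) (adjusted p = 0.103) and -0.24 ± 0.12 (SE) (adjusted p = 0.175), while the difference between the hairpins did, at -0.50 ± 0.12 (SE) (adjusted p = 0.00791). The grouped value of 0.027 ± 0.16 (SE) averages these opposite values. CHEK2, the effector kinase below ATM, was at -0.28 ± 0.12 (SE) grouped (adjusted p = 0.14) and passed no test.

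**Figure D3:**
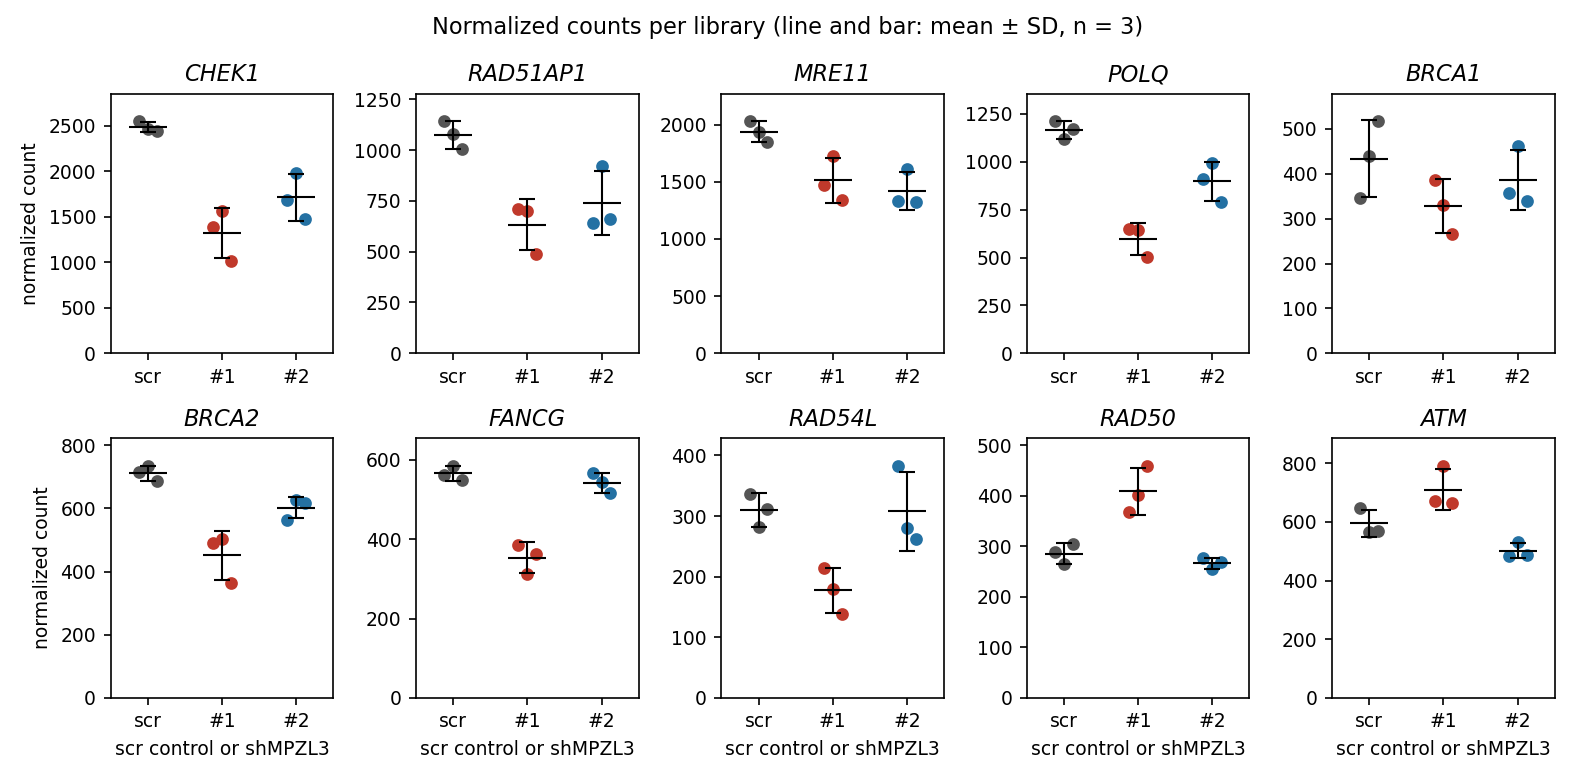
Normalized counts in each of the 9 libraries are plotted for 10 repair genes, with the mean and SD of the 3 libraries of each group. CHEK1, RAD51AP1, MRE11 and POLQ are lower in every knockdown library, BRCA1 overlaps, BRCA2, FANCG and RAD54L are lowest with shMPZL3 #1, and RAD50 and ATM are highest with shMPZL3 #1.

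In the BRCA complex no gene was called with both hairpins grouped, and all 5 were below 0 with a median of -0.28. BRCA1, the E3 ligase that favours resection, had 346, 439.5 and 517 normalized counts with scr control, 387, 331 and 267 with shMPZL3 #1 and 356, 463 and 339 with shMPZL3 #2. The groups overlapped, the lowest control lying below one shMPZL3 #1 library. BRCA1 passed no test, with a grouped change of -0.28 ± 0.17 (SE) (adjusted p = 0.272, 95% interval -0.64 to 0.08). BRCA2, which acts on the resected single strands, had 714, 735 and 686 with scr control, 489.7, 503 and 363 with shMPZL3 #1 and 565, 628 and 616 with shMPZL3 #2. The groups were ordered without overlap, shMPZL3 #1 lowest. Its change was -0.66 ± 0.13 (SE) with shMPZL3 #1 (adjusted p = 0.00103) and -0.24 ± 0.13 (SE) with shMPZL3 #2 (adjusted p = 0.226), and the hairpins differed by 0.42 ± 0.13 (SE) (adjusted p = 0.0366).

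Of the other BRCA complex genes, BARD1 alone was called in any contrast. BARD1, the partner of BRCA1, was called lower with shMPZL3 #1 at -0.53 ± 0.12 (SE) (adjusted p = 0.00271) and stood at -0.19 ± 0.12 (SE) with shMPZL3 #2. BRIP1, a helicase that binds BRCA1, was at -0.23 ± 0.12 (SE) grouped, and PALB2, which joins BRCA1 to BRCA2, at -0.014 ± 0.12 (SE) with a 95% interval of -0.27 to 0.24. Neither passed a test.

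Of the 5 related genes RAD51B, RAD51C, RAD51D, XRCC2 and XRCC3, which assist strand exchange, XRCC2 and RAD51D were called lower in the grouped contrast. XRCC2 had 1382, 1231 and 1416 normalized counts with scr control, 1031, 882 and 723 with shMPZL3 #1 and 1010.3, 1067 and 929.7 with shMPZL3 #2. No knockdown library overlapped the controls. It changed by -0.61 ± 0.12 (SE) with shMPZL3 #1 (adjusted p = 0.00119) and by -0.42 ± 0.12 (SE) with shMPZL3 #2 (adjusted p = 0.027). RAD51D had 294, 316 and 271 with scr control, 225, 198 and 197 with shMPZL3 #1 and 221, 237 and 215 with shMPZL3 #2, all knockdown libraries again being lower. It passed the test grouped at -0.45 ± 0.13 (SE) (adjusted p = 0.0301) and with shMPZL3 #1, and with shMPZL3 #2 it stood at -0.39 ± 0.14 (SE) (adjusted p = 0.0737).

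RAD51C was called lower with shMPZL3 #1 at -0.51 ± 0.16 (SE) (adjusted p = 0.0217), where replicate 3 had 288 normalized counts against 464 and 501 in the others. RAD51B, the gene with the lowest level per length, was at -0.20 ± 0.23 (SE) grouped and XRCC3 at 0.079 ± 0.14 (SE), and neither passed a test. XRCC3 shares 76.7% of its exonic bases with KLC1 on the opposite strand, and the libraries kept no strand.

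Of RAD51AP1, RAD54L and RAD54B, which act in strand invasion, RAD51AP1 was called lower with both hairpins and RAD54L with shMPZL3 #1. RAD51AP1, which stimulates strand invasion, had 1142, 1078 and 1005 normalized counts with scr control, 709, 699.5 and 487 with shMPZL3 #1 and 639.8, 920 and 661 with shMPZL3 #2. All knockdown libraries were under the controls, and the hairpins overlapped. Its change was -0.77 ± 0.15 (SE) with shMPZL3 #1 (adjusted p = 0.0012) and -0.54 ± 0.15 (SE) with shMPZL3 #2 (adjusted p = 0.0243), and the exact two-sided permutation p of 6 against 3 libraries was 0.0119, the smallest this design allows. RAD54L, a DNA motor protein, had 336, 281 and 312 with scr control, 214, 179 and 139 with shMPZL3 #1 and 383, 280 and 262 with shMPZL3 #2. The shMPZL3 #1 libraries were all below the controls, while those of shMPZL3 #2 lay on both sides of them. The change with shMPZL3 #1 was -0.80 ± 0.18 (SE) (adjusted p = 0.00325), and the difference between the hairpins of 0.79 ± 0.18 (SE) (adjusted p = 0.00747) was the largest of the 39 genes. The gene overlaps LRRC41, read from the other strand, in 25.1% of its exonic bases, and summed over all libraries LRRC41 had 8651 counts and RAD54L 2341. RAD54B, its relative, was at -0.32 ± 0.22 (SE) grouped and passed no test, and 59.1% of its exonic bases are shared with FSBP.

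Of the 9 genes of the Fanconi core complex, UBE2T included, 6 were called lower with shMPZL3 #1, 0 with shMPZL3 #2 and 1, FANCB, in the grouped contrast, beside 15.3%, 5.80% and 6.40% of all genes. FANCB, a subunit of the catalytic module, had 313, 260.3 and 292 normalized counts with scr control, 179, 209 and 175 with shMPZL3 #1 and 208, 246 and 177 with shMPZL3 #2. The knockdown libraries all lay below the controls, with a grouped change of -0.54 ± 0.15 (SE) (adjusted p = 0.0271). FANCG, which binds FANCA, had 562, 585 and 549.9 with scr control, 386, 312 and 363 with shMPZL3 #1 and 566, 544 and 516 with shMPZL3 #2. Only shMPZL3 #1 stood apart, at -0.68 ± 0.12 (SE) (adjusted p = 0.000488), and the hairpins differed by 0.61 ± 0.12 (SE) (adjusted p = 0.00249).

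UBE2T, the E2 enzyme that serves the FANCL ligase, had 1221, 1360.1 and 1191 normalized counts with scr control, 918, 869 and 598 with shMPZL3 #1 and 947, 1298 and 1086 with shMPZL3 #2. The shMPZL3 #2 libraries overlapped the controls and the shMPZL3 #1 libraries did not. The change with shMPZL3 #1 was -0.66 ± 0.15 (SE) (adjusted p = 0.00263) and the hairpins differed by 0.48 ± 0.15 (SE) (adjusted p = 0.035). UBE2T also had the highest level per length, 37.1 ± 2.67 (SD, n = 3) RPKM (counts scaled to exon length and library size) with scr control, where RAD51B had the lowest, 0.724 ± 0.0949, leaving RAD50, XRCC3 and RAD54B unranked for their shared exons. FANCA, a core subunit, was called lower with shMPZL3 #1 at -0.53 ± 0.12 (SE), FANCE, which binds FANCD2, at -0.41 ± 0.15 (SE) and FANCM, the translocase that anchors the complex, at -0.61 ± 0.18 (SE). FANCA shares 23.6% of its exonic bases with ZNF276 on the other strand. FANCL, the E3 ligase, was at -0.33 ± 0.17 (SE) grouped, the core subunits FANCC at -0.12 ± 0.13 (SE) and FANCF at 0.086 ± 0.22 (SE), and none of the 3 passed a test.

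Both genes of the ID complex, the substrate of the core complex, were called lower with shMPZL3 #1 and neither with shMPZL3 #2. FANCD2 had 1464, 1387 and 1363 normalized counts with scr control, 1017, 942 and 773 with shMPZL3 #1 and 1263, 1262 and 1162 with shMPZL3 #2. The groups were ordered without overlap, shMPZL3 #1 lowest. Its change was -0.62 ± 0.11 (SE) with shMPZL3 #1 (adjusted p = 0.000404) and -0.19 ± 0.11 (SE) with shMPZL3 #2 (adjusted p = 0.251), and the hairpins differed by 0.43 ± 0.11 (SE) (adjusted p = 0.0127). FANCI, its partner, was at -0.55 ± 0.13 (SE) with shMPZL3 #1 (adjusted p = 0.00383) and -0.18 ± 0.13 (SE) with shMPZL3 #2 (adjusted p = 0.385).

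SLX4, ERCC1 and ERCC4, which act at the crosslink, were not called in any contrast. SLX4, the scaffold, was at 0.026 ± 0.13 (SE) grouped with a 95% interval of -0.25 to 0.30. ERCC1 and ERCC4, which encode the ERCC1-XPF nuclease, were at 0.097 ± 0.12 (SE) (-0.15 to 0.35) and -0.11 ± 0.17 (SE) (-0.48 to 0.25). CD3EAP on the opposite strand covers 28.6% of the exonic bases of ERCC1.

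POLQ fell with each hairpin and more with the first. It had 1211, 1119 and 1170 normalized counts with scr control, 648, 646 and 501 with shMPZL3 #1 and 910.1, 993 and 789 with shMPZL3 #2. The groups were ordered without overlap, shMPZL3 #1 lowest. The change was -0.96 ± 0.12 (SE) with shMPZL3 #1 (adjusted p = 3.07e-05), the largest fall of the 39 genes with that hairpin, and -0.38 ± 0.12 (SE) with shMPZL3 #2 (adjusted p = 0.0415), with a difference of 0.58 ± 0.12 (SE) between them (adjusted p = 0.00386).

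Other repair genes gave the following counts. Of 49 further homologous recombination and Fanconi genes tested, 11 were called lower grouped, 20 with shMPZL3 #1 and 4 with shMPZL3 #2, beside 6.40%, 15.3% and 5.80% of all genes, and 0 were called higher in these 3 contrasts by edgeR. PARPBP, which restrains homologous recombination, was at -0.84 grouped (adjusted p = 0.0043), REV3L, the catalytic subunit of polymerase zeta, at -0.72 (adjusted p = 0.00688), TOPBP1, an activator of ATR, at -0.56 (adjusted p = 0.00575), and RPA1, which coats single strands, at -0.46 (adjusted p = 0.00639). REV3L fell more with shMPZL3 #2, by a difference of -0.47 (adjusted p = 0.00728). Of 9 non-homologous end joining genes tested 3 were lower grouped, among them XRCC5 and PRKDC, which encode the KU80 subunit and the DNA-dependent kinase. Of 29 excision and mismatch repair genes 4 were lower grouped, among them the mismatch sensor MSH3 and the uracil glycosylase UNG. UNG is also in the S phase list used next.

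Cell cycle genes were lower in the same libraries as the repair genes. Of 39 S phase genes tested from the Seurat list, the repair genes left out, 14 were called lower grouped, 31 with shMPZL3 #1 and 8 with shMPZL3 #2, with median log2 fold changes of -0.37, -0.53 and -0.24. Of 54 G2/M genes 38, 52 and 28 were called lower, with medians of -0.58, -0.72 and -0.43. In the single libraries the median of the repair genes against scr control was -0.38, -0.37 and -0.68 with shMPZL3 #1, where that of the S phase genes was -0.36, -0.48 and -0.63. With shMPZL3 #2 it was -0.21, -0.14 and -0.21 for the repair genes and -0.30, -0.14 and -0.30 for the S phase genes. Replicate 3 of shMPZL3 #1 was the lowest library for both lists and replicate 2 of shMPZL3 #2 the least lowered. In bulk RNA fewer cells in a cycle phase and less RNA per cell cannot be told apart, and the part of the cell cycle genes in these results was not tested.

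**Figure D4:**
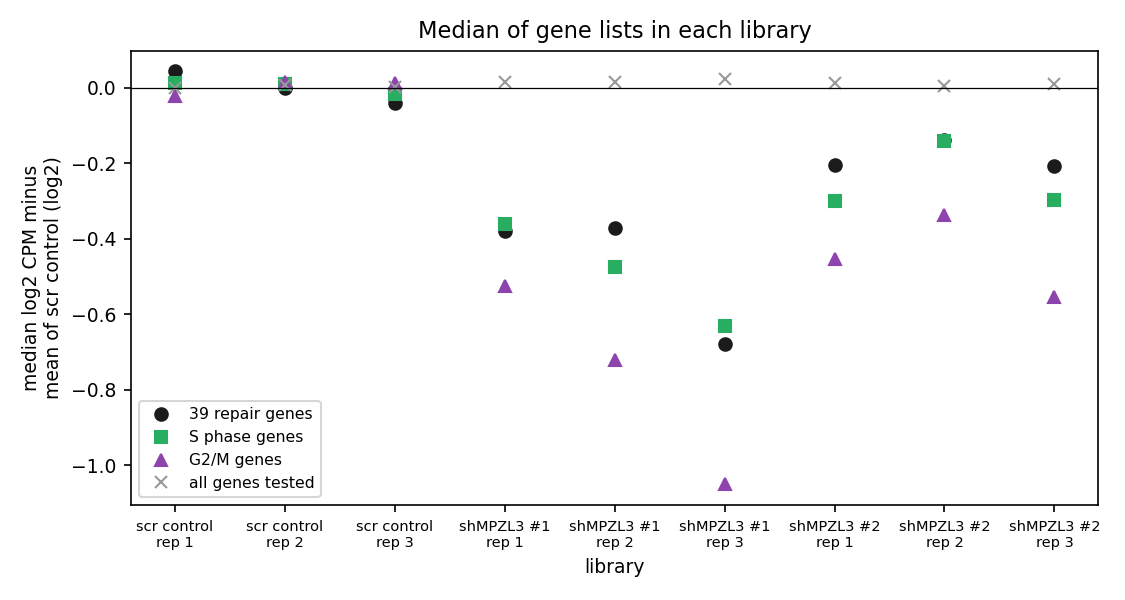
The median over each gene list of log2 CPM minus the scr control mean (vertical axis, log2) is plotted for each of the 9 libraries. The repair genes (circles) and S phase genes (squares) lie close together in each knockdown library, the G2/M genes (triangles) lie lower, and all genes tested (crosses) stay near 0.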

How the data were processed

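RNA-seq was analysed in 9 OVCAR4 libraries, 3 per group. Per the labels, libraries were poly-A selected and non-directional, and the submitters' processing notes name HISAT2 2.0.5, featureCounts 1.5.0-p3 and hg38. The deposited table holds raw gene counts from the authors; the featureCounts options are not given in the sources used here. All 58735 rows matched GENCODE 29 in identifier, position and name. Totals were 15040102 to 27835841 counts. All columns of the table were assigned to a sample.

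Genes were kept with filterByExpr (minimum count 10), scaled by TMM and tested with edgeR 4.0.16 (glmQLFit, glmQLFTest; R 4.3.3), p-values being adjusted by Benjamini-Hochberg across all 16928 tested genes and called under 0.05. Both hairpins were grouped in a 2-group fit, as in the study's methods, and each hairpin was also tested in a 3-group fit. SE is the fold change divided by the square root of F, and intervals are at 95%. Normalized counts are scaled to the mean effective library size, and log2 CPM used a prior count of 2. Levels per length used GENCODE exon lengths. Alternatives used DESeq2 1.42.0, limma 3.58.1 and other filters, scalings and sample sets. The code was tested on simulated data in which both hairpins were given the same fold change. Among genes that passed the filter, the median bias of fold changes against scr control stayed under a set limit. The base of this recovery was narrowed to those genes after a first run. The share of false calls in the grouped comparison was above the nominal level in the set simulated. Genes that differ between hairpins, as some do in these data, were not simulated.

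The 39 genes and all lists were chosen with earlier results of these data known. Values per library are given for genes called with both hairpins singly, called between hairpins or called higher, and for BRCA1, BRCA2, ATM, ATR and POLQ; RAD51D and FANCB were added after their values were seen. Genes of the other lists are named when called with both hairpins, at most 4 per list. Promoter sequences came from RefSeq (GRCh38.p14), for 4 called genes with the smallest grouped p and an entry and 1 uncalled gene; ATM had no stretch free of exons. Nothing further says that replicates were separate cultures beyond the study calling them biological replicates. Some items are not reported here.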

Additional observations from a re-analysis of the deposited data

Results flagged for a closer look

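Among the 6 knockdown libraries, which pool both hairpins, replicate 3 of shMPZL3 #1 lay far below the others for BLM, with 280 normalized counts, and for RAD51C, with 288. A gap of this size is met by chance in about 1 of 20 groups, and 39 genes were looked at.

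For 8 genes the change differed between the hairpins by the test of the difference itself (edgeR, adjusted p under 0.05). The log2 difference, shMPZL3 #2 minus shMPZL3 #1, was -0.62 for RAD50 and -0.50 for ATM, which were lower with shMPZL3 #2. It was 0.42 for BRCA2, 0.79 for RAD54L, 0.61 for FANCG, 0.48 for UBE2T, 0.43 for FANCD2 and 0.58 for POLQ, which were higher with shMPZL3 #2. MPZL3 itself was also higher with shMPZL3 #2, and the part of this in the differences was not tested.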

How the results depend on the processing

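With each library left out in turn, the genes called lower grouped ranged from 0 to 13, with shMPZL3 #1 from 16 to 24 and with shMPZL3 #2 from 0 to 8, and those called higher with shMPZL3 #1 from 1 to 2 and with shMPZL3 #2 against shMPZL3 #1 from 3 to 9. For the 39 genes the median change (log2) ranged from -0.38 to -0.23 grouped, from -0.53 to -0.32 with shMPZL3 #1, from -0.23 to -0.13 with shMPZL3 #2 and from 0.14 to 0.33 between the hairpins. Calls over all genes moved too with a library left out. Those called lower ranged from 172 to 1450 grouped, from 1689 to 2824 with shMPZL3 #1 and from 354 to 1388 with shMPZL3 #2. Taking the mean of the 2 hairpins in the 3-group fit called 18 genes lower in place of 9, and over all genes 2198 in place of 1083. Thinning every library to the smallest total called 2 genes higher with shMPZL3 #1 and gave a median of -0.40, and a second such draw, added after seeing the data, called 1 and gave a median of -0.48. The causes were not tested. DESeq2, limma-voom, the other scalings and the other filters left each count within 1.5 times its value. RAD50, ATM, FANCG and POLQ kept their called difference between hairpins under all 18 alternatives. The largest adjusted p in the tests of these alternatives was 0.0302, 0.0385, 0.0147 and 0.0203 in that order. BRCA2, RAD54L, UBE2T and FANCD2 kept theirs under 11, 17, 15 and 16 of the 18.

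The replicate block, with the replicate number as a term, called 12 genes higher between the hairpins in place of 6 and moved no other count by over 1.5 times. Libraries with the same number had correlations of -0.00143 to 0.218 in their deviations from the group means, which does not reach 0.1 in every pair, so the numbers were not taken to pair the samples. Between the hairpins alone the same-number correlations were 0.0966 to 0.218 and the others -0.147 to 0.00376, each library correlating best with its own number, which is a hint from the data and not from the design. Over all genes the block called 1808 lower and 2015 higher between the hairpins, in place of 1280 and 1279.

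Of the values of single genes under the alternatives, 1195 kept direction and call, 71 lost a call, 24 gained one and 24, all near 0, changed sign. ATR between hairpins was -0.0023 with DESeq2, -0.0023 with RLE, -0.025 with upper-quartile scaling, -0.017 with at least 10 counts in every library and -0.011 thinned, and -0.075 to 0.079 with a library left out. RAD54L with shMPZL3 #2 was 0.012 with at least 10 counts in every library, 0.044 thinned and -0.21 to 0.11 with a library left out. RAD50 with shMPZL3 #2 was 0.0052 thinned. ATM grouped was -0.0014 in the second draw. With a library left out, ATM grouped was -0.063 to 0.10 and MRE11 between hairpins -0.19 to 0.014.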
